A study of Mus musculus with 6 samples.

Results

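The genes described here are 40 members of the Wnt pathway: 19 Wnt ligands, 10 secreted modulators (Dkk1, Dkk2, Dkk3, Sfrp1, Sfrp2, Sfrp5, Rspo1, Rspo2, Rspo3 and Wif1) and 11 co-receptors and intracellular effectors (Lrp5, Lrp6, Ctnnb1, Apc, Axin2, Nkd1, Nkd2, Lef1, Tcf7, Tcf7l1 and Tcf7l2). They were taken from a list of names, without the frizzled receptors. All 40 had measured tiles, out of 20341 protein-coding genes with a measured window. For each gene, a window was the RefSeq gene span plus 10 kb on each side (mm10), and its level was the mean over the 1 kb tiles that overlap it. The windows held 2749 of the 1954255 tiles. Windows of neighbouring genes share tiles: Wnt3 and Wnt9b share 21, Wnt6 and Wnt10a 14, Wnt1 and Wnt10b 10, and Wnt3a and Wnt9a 5.

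The levels are DNA methylation, in percent, from whole-genome bisulfite sequencing of sorted lung endothelium of mice. Compared were 3 samples labelled as knockout (KO) for Dnmt3a, which encodes a de novo DNA methyltransferase, and 3 labelled as wild type (WT). The comparison asks how methylation at these genes differs without the enzyme, in a study whose title concerns the enhancers of endothelium. The labels give the genotype only: the allele, any Cre driver, and the age, sex and number of mice do not appear in them, nor whether each sample is a mouse of its own. The spread behind the p-values is therefore that of these samples and may be technical. Since the levels come without read counts, the depth is unknown and no counting interval can be set. A level between 0 and 100% in a bulk sample can be a mixture of cells, and fewer methylated cells cannot be told apart from less methylation in each cell.

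Wnt proteins are secreted, lipid-modified ligands that bind frizzled receptors together with the co-receptors LRP5 or LRP6. In canonical signalling this stops the destruction complex, which contains APC and AXIN2, from degrading β-catenin (Ctnnb1), and β-catenin then acts in the nucleus with the DNA-binding factors LEF1, TCF7, TCF7L1 and TCF7L2. Secreted proteins tune the signal: DKK proteins act on the co-receptors, SFRP proteins and WIF1 bind Wnt ligands, and R-spondins strengthen the response. In blood vessels, canonical Wnt signalling is best known for forming the barrier of brain and retina, and in the lung Wnt2 and Wnt2b act in early development.

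Over all tiles the mean level was 63.7% ± 0.1401 in KO against 69.01% ± 0.451 in WT (SD, n = 3), so loss in KO was general. The window of Dnmt3a itself was at 50.4% ± 0.696 in KO against 65.2% ± 0.497 in WT, which does not check the genotype because levels do not show a deletion. First starts of 10 endothelial marker genes averaged 11.2 to 12.3% in KO samples and 17.5 to 18.2% in WT samples, and none was at 50% or more in either group. All 5 leukocyte marker starts were at 50% or more in both groups, with list means of 60.8 to 64.6% in KO and 68.9 to 70.4% in WT. Mesenchymal marker starts were lower in KO, at 15.9 to 18.4% against 32.8 to 34.5%, with 4 of 5 called, as were 3 of 5 epithelial ones (24.8 to 26.4% against 36.7 to 38.3%). The list means of the 3 erythroid ones overlapped between the groups (40.6 to 48.4% in KO, 47.1 to 50.2% in WT). One start was also called lower in each of the endothelial (Flt1), leukocyte (Cd79a) and erythroid (Epor) lists, where 16.5% of all first starts were lower. Whether other cells in the sorts had a part in the differences was not tested.

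Methylation was lower in KO at most of the Wnt pathway genes. The median loss was larger over the effectors than over the ligands and the modulators, a difference between roles that was not tested. Windows were called at an adjusted p under 0.05 in limma and a difference of at least 5 points. By this rule 34 of 40 windows fell in KO and 0 rose, where 56.6% of all gene windows fell and 0.0246% rose. No member was higher at an unadjusted p under 0.05. The effectors and co-receptors all fell, 11 of 11, with a median difference of -10.4 points. Of the ligands 15 of 19 fell (median -6.998 points) and of the secreted modulators 8 of 10 (median -7.74). The median over all gene windows was -5.59 points. The roles did not start from one WT level: the mean WT window level was 54.8% for ligands, 64.4% for modulators and 71.7% for effectors and co-receptors. Whether this had a part in the difference between roles was not tested. With a minimum of 10 points, 6 effectors, 4 ligands and 2 modulators were called, 12 of 40 in all, where 16.4% of all windows were. Every KO sample lay below every WT sample in 39 of the 40 windows, against 84.6% of all windows, and only the groups of Wnt10a overlapped.

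These counts depend on how the samples are put on one scale. Centring each sample on its median tile level removes a common difference of -4.89 points. After centring 12 of the 40 windows were called lower, and after scaling each sample to one mean level 14, with none called higher in either case. Of all gene windows 17.1% were then lower on centring and 16.995% on scaling, with 691 and 770 windows higher. The median of the 11 effectors and co-receptors was then -5.49 points centred and -5.41 scaled. That of the ligands was -2.11 and -2.98, and that of the modulators -2.85 and -2.64. Among the effectors, the 4 nuclear factors had medians of -9.77 and -9.47. Those of Ctnnb1, Apc, Axin2, Nkd1 and Nkd2 together were -4.74 and -3.998, and those of Lrp5 and Lrp6 were -3.53 and -2.91. All genes had medians of -0.696 and -0.233. Of the 40 members 34 stayed negative on centring and 33 on scaling, the 4 nuclear factors among them under both. Wnt2, Wnt7a, Wnt10a, Wnt16, Rspo2 and Sfrp5 turned positive under both, and Apc turned positive on scaling.

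**Figure D1:**
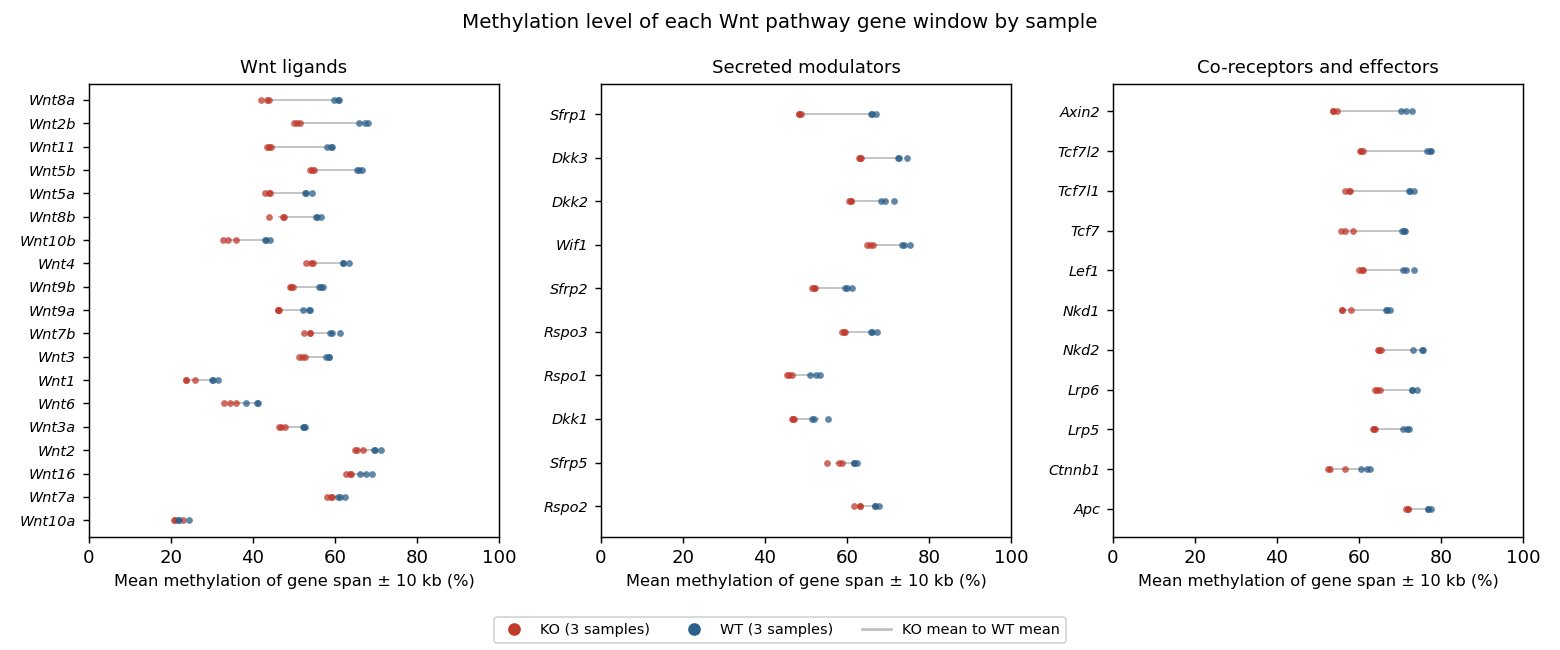
Mean methylation of the gene span with 10 kb on each side (x axis, percent) for the 40 genes in 3 panels by role, ordered by difference. Red dots are the 3 KO samples, blue dots the 3 WT samples and grey lines join the group means; the groups are apart in every row but Wnt10a, and the widest gaps are those of Sfrp1, Axin2, Wnt8a, Tcf7l2 and Wnt2b.

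The 4 genes of the nuclear TCF/LEF factors, which bring β-catenin to its target genes, all fell by more than 10 points. Tcf7l2 (chromosome 19, 55741797 to 55933659) had window levels of 61.01, 60.4 and 60.1% in KO samples 1 to 3 and 77.4, 76.6 and 77.4% in WT samples 1 to 3. Its mean was 60.5% ± 0.453 in KO against 77.1% ± 0.485 in WT, a difference of -16.6 points, SE 0.611, adjusted p = 1.29e-07 (limma). The KO samples lay well below the WT samples and the spread within each group was under 1 point. Of its 212 tiles 131 were called lower, 61.8%, where 16.2% of all tiles and 19.7% of the tiles of all genes were (adjusted p under 0.05 and at least 10 points). Tcf7l1 (chromosome 6, 72626371 to 72789045), best known as a repressor in this family, was at 56.6, 57.6 and 57.8% in KO against 73.5, 72.2 and 72.4% in WT. The difference was -15.3 points, SE 0.709, adjusted p = 1.94e-07, and 102 of 183 tiles fell.

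Tcf7 (chromosome 11, 52246527 to 52283383), which encodes the factor TCF1 of T cells, had levels of 55.6, 56.5 and 58.6% in KO against 71.2, 70.4 and 71.1% in WT. It differed by -13.99 points, SE 0.877, adjusted p = 5.85e-07, with 26 of 55 tiles lower. Lef1 (chromosome 3, 131110297 to 131224357) was at 60.9, 59.99 and 60.8% in KO against 73.3, 70.6 and 71.5% in WT. Its difference was -11.2 points, SE 0.812, adjusted p = 1.18e-06, the smallest of the 4, and 53 of 134 tiles fell. The groups did not overlap in any of these windows. Together the nuclear factors held 312 called tiles among 584, 53.4%.

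Along these genes the loss came in long runs. Called tiles no more than 1 kb apart were joined to regions, whose levels are means over the called tiles and so describe them without a further test. The longest region in Tcf7l2 ran for 27 kb inside the gene (chromosome 19, 55757001 to 55784000), at 60.6% ± 0.997 in KO against 81.8% ± 0.624 in WT. A deeper one began 2.19 kb after the first start and ran for 11 kb (chromosome 19, 55744001 to 55755000), at 25.2% ± 2.45 in KO against 71.5% ± 0.426 in WT. In it lay the member tile with the largest called loss (55745001 to 55746000), at 7.98, 0.721 and 2.27% in KO against 90.2, 80.7 and 87.4% in WT: it was nearly unmethylated in each KO sample and above 80% in each WT sample. Tcf7l1 held regions of 29 kb (chromosome 6, 72672001 to 72701000; 41.2% ± 1.27 in KO against 70.4% ± 0.384 in WT) and 26 kb (chromosome 6, 72742001 to 72768000; 45.7% ± 2.12 in KO against 70.7% ± 1.87 in WT) inside the gene. The first of these also overlaps the non-coding genes Gm31391 and Gm31315, and the second Gm31249. The Tcf7l1 tile with the largest loss lay outside both, just inside the first start (72787001 to 72788000), at 2.21% ± 0.663 in KO against 71.96% ± 4.48 in WT.

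In Tcf7 the longest region lay outside the gene, before its first start. It ran for 18 kb (chromosome 11, 52285001 to 52303000), reached past the window and was at 47.9% ± 2.64 in KO against 74.6% ± 2.32 in WT. The tile from 52286001 to 52287000 within it was at 2.31, 2.19 and 1.98% in KO against 64.97, 60.8 and 58.7% in WT. A second region of 16 kb inside Tcf7 (chromosome 11, 52262001 to 52278000) had 44.2% ± 3.44 in KO against 66.1% ± 0.573 in WT. Lef1 had a region of 11 kb around a start inside the gene (chromosome 3, 131152001 to 131163000), at 44.7% ± 1.23 in KO against 68.9% ± 3.84 in WT. Loss in the 10 kb before Lef1 was -17.6 points, before Tcf7 -22.9 points, and in the 10 kb after them -5.99 and -5.71 points. The best tile of each of these regions had an adjusted p between 8.48e-11 and 8.62e-06 (limma).

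**Figure D2:**
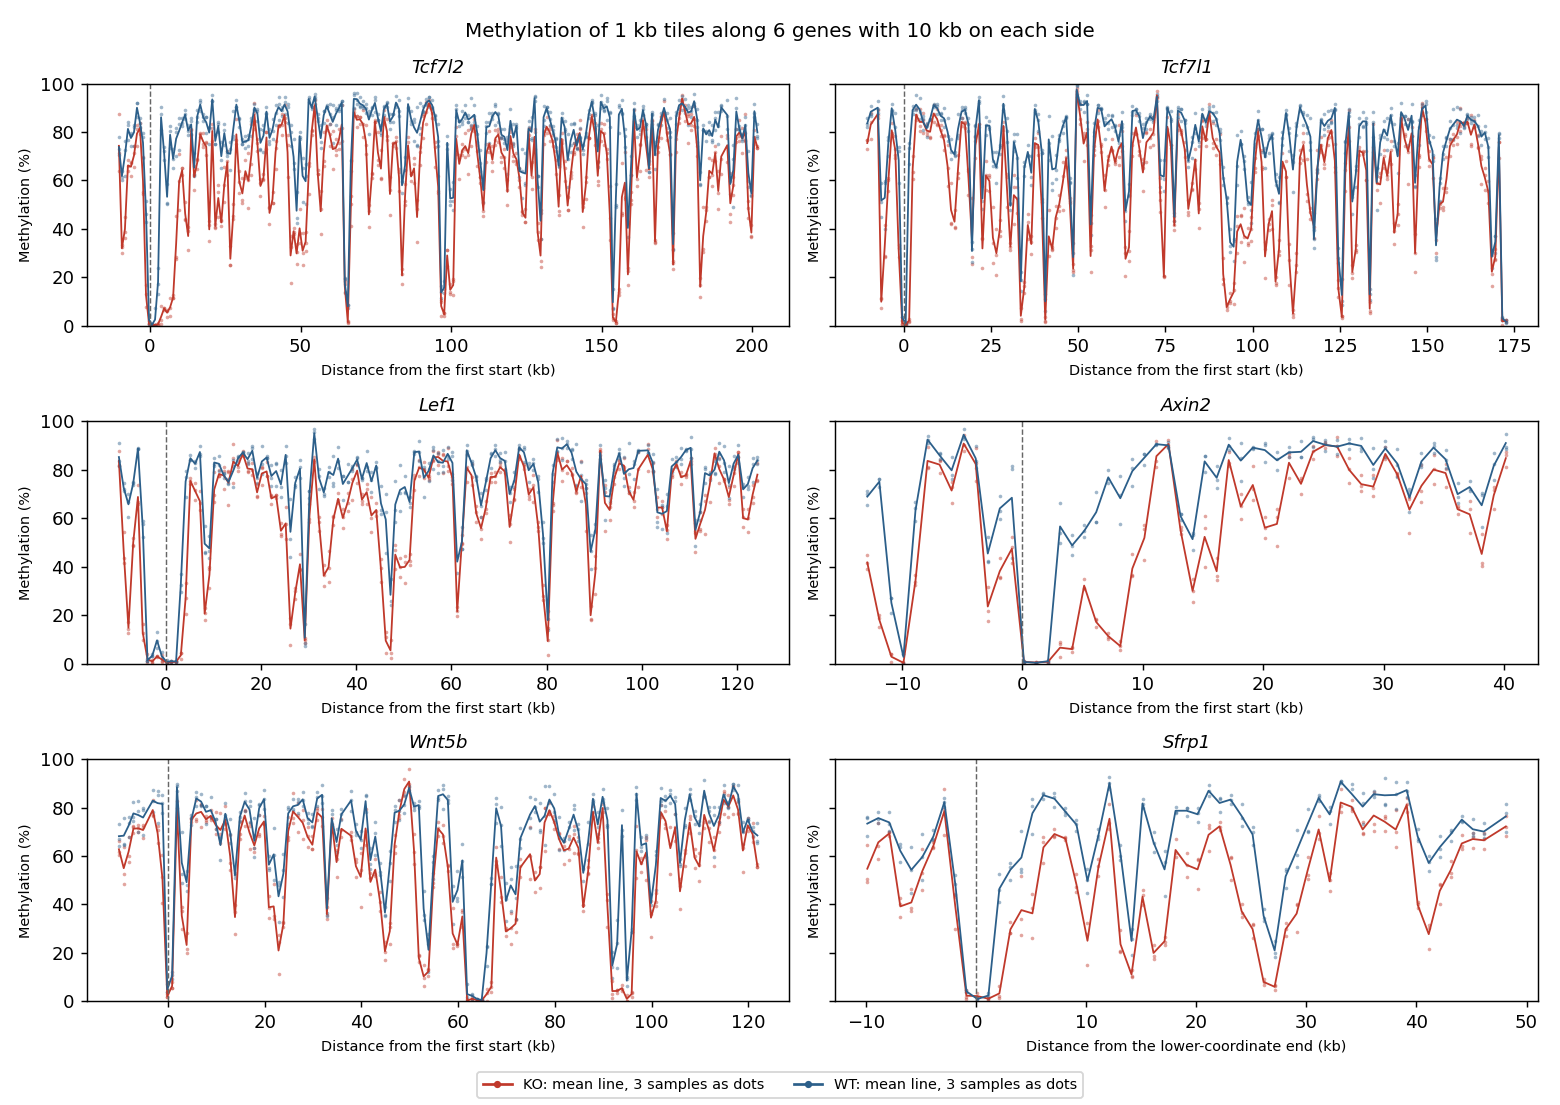
Methylation of each 1 kb tile (y axis, percent) along 6 genes with 10 kb on each side, against distance in kb from the first start (dashed line; for Sfrp1, which has no entry in the promoter table, from its lower-coordinate end). Lines are group means and dots single samples, red for KO and blue for WT; around most starts both lines come down to near 0, and in Tcf7l2, Axin2 and Sfrp1 the red line stays low for further kb on the right of the dashed line.

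Axin2, a scaffold of the destruction complex and a widely used target gene of the pathway, had the second largest window loss of all members. Its levels (chromosome 11, 108917828 to 108950783) were 53.5, 53.8 and 54.7% in KO against 72.8, 70.2 and 71.5% in WT. The mean was 53.99% ± 0.604 in KO against 71.5% ± 1.32 in WT, a difference of -17.5 points, SE 0.846, adjusted p = 2.25e-07. All KO samples were under 55% and all WT samples over 70%. A region of 8 kb that began 2.65 kb after its first start (chromosome 11, 108923001 to 108931000) was at 21.4% ± 1.09 in KO against 66.5% ± 4.77 in WT. The longest one, of 11 kb, lay outside the gene beyond its far end and reached past the window (chromosome 11, 108958001 to 108969000). Its level was 51.6% ± 3.099 in KO against 68.5% ± 1.38 in WT. The 8 kb region was named after its values were seen.

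Ctnnb1, which encodes β-catenin (chromosome 9, 120933400 to 120960507), and Apc, which holds the destruction complex together (chromosome 18, 34220297 to 34322190), had the smallest losses among the effectors. Ctnnb1 was at 52.5, 53.01 and 56.6% in KO against 61.95, 60.4 and 62.7% in WT, and it differed by -7.65 points, SE 1.18, adjusted p = 0.000166. The 10 kb before the gene differed by -15.8 points and the gene span by -5.66. Apc was at 72.03, 71.3 and 71.9% in KO against 76.8, 76.7 and 77.6% in WT, and it differed by -5.26 points, SE 0.543, adjusted p = 1.08e-05. The groups were apart, but the Apc call was lost without WT sample 3 (-4.97 points) and with the gene span only (-4.98). It was also lost on centring (-0.367) and on scaling (0.755). The 2 naked cuticle genes, whose proteins restrain Dishevelled, lay between: Nkd1 differed by -10.4 points and Nkd2 by -9.63. The co-receptor genes were close to each other, Lrp5 at 63.6% ± 0.224 in KO against 71.6% ± 0.727 in WT and Lrp6 at 64.4% ± 0.618 in KO against 73.3% ± 0.651 in WT, differences of -7.98 and -8.87 points. Like that of Apc, the calls of Ctnnb1, Nkd2, Lrp5 and Lrp6 ended under both centring and scaling.

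The ligands spread widely, from -17.4 to -1.18 points. Wnt8a, an embryonic ligand (chromosome 18, 34542327 to 34548061), had the largest loss among them. Its window was at 41.9, 43.96 and 43.3% in KO against 60.8, 60.9 and 59.7% in WT, and it differed by -17.4 points, SE 0.881, adjusted p = 2.57e-07. A region of 12 kb (chromosome 18, 34541001 to 34553000) covered the whole 5.74 kb gene, at 22.4% ± 1.72 in KO against 49.7% ± 1.44 in WT. Both ends of Wnt8a were lower in KO: the lower-coordinate end was at 12.2% ± 1.26 in KO against 39.1% ± 2.67 in WT and the other at 14.8% ± 1.27 in KO against 53.9% ± 2.82 in WT. Which end is the start is not given in the sources used here.

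Wnt2b, a canonical ligand of lung development (chromosome 3, 104944805 to 104961709), followed, at 50.7, 51.4 and 50.1% in KO against 67.4, 65.8 and 67.9% in WT. The difference was -16.3 points, SE 0.849, adjusted p = 2.77e-07. Its longest region (10 kb, chromosome 3, 104936001 to 104946000; 49.05% ± 0.396 in KO against 74.1% ± 1.77 in WT) lay at the far end and wholly within the overlapping gene St7l, with 1.196 kb in Wnt2b, so this loss cannot be assigned to Wnt2b alone. Another region of 7 kb lay before its first start (chromosome 3, 104963001 to 104970000), at 25.01% ± 2.85 in KO against 57.1% ± 2.58 in WT. Wnt2 itself, the ligand that acts with it in the lung, had a small difference and no call, at 65.3, 66.7 and 64.8% in KO against 71.2, 69.8 and 69.5% in WT (-4.58 points, SE 0.765, adjusted p = 0.000287). All 3 KO samples of Wnt2 were below all WT samples, and the difference turned positive after centring (0.3105 points) and scaling (0.912).

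The ligands known mainly for signalling without β-catenin, Wnt11, Wnt5b and Wnt5a, made up the rest of the 5 largest losses. Wnt11 (chromosome 7, 98835084 to 98854747) was at 43.4, 44.3 and 43.98% in KO against 59.3, 59.1 and 58.02% in WT, and it differed by -14.9 points, SE 0.8096, adjusted p = 3.19e-07. Its longest region, 25 kb (chromosome 7, 98860001 to 98885000), lay beyond the far end of the gene and reached past the window, with 7.37 kb in the non-coding gene Gm33827; it was at 43.5% ± 1.02 in KO against 66.5% ± 1.701 in WT. Wnt5b (chromosome 6, 119432531 to 119544824) was at 54.3, 53.998 and 54.9% in KO against 66.6, 65.4 and 65.9% in WT, and it differed by -11.6 points, SE 0.738, adjusted p = 6.32e-07. Its longest region ran for 12 kb inside the gene (chromosome 6, 119467001 to 119479000), at 39.1% ± 2.13 in KO against 61.01% ± 3.68 in WT, and 5.98 kb of it lay in the non-coding gene Gm40397. Wnt5a (chromosome 14, 28504543 to 28527448) was at 44.1, 42.8 and 43.98% in KO against 52.8, 53.03 and 54.4% in WT, and it differed by -9.78 points, SE 0.869, adjusted p = 4.09e-06. The region of 8 kb at its higher-coordinate end (chromosome 14, 28525001 to 28533000) was at 40.5% ± 2.24 in KO against 58.6% ± 1.95 in WT. In all 3 genes the groups were apart, and the call for Wnt5a missed the 5-point minimum after centring (-4.88).

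The ligands with the smallest differences were Wnt10a and Wnt7a. Wnt10a (chromosome 1, 74792019 to 74804176) was low in both groups, at 22.8, 21.1 and 20.7% in KO against 24.4, 22.02 and 21.7% in WT. It differed by -1.18 points, SE 0.884, adjusted p = 0.232, which did not pass the test, and the groups overlapped. Wnt7a (chromosome 6, 91363981 to 91411353), a ligand of the brain vessel barrier, was at 57.96, 59.4 and 59.1% in KO against 62.5, 60.7 and 61.2% in WT, and its difference of -2.62 points, SE 0.817, adjusted p = 0.0125 missed the 5-point minimum. Both differences turned positive, at 3.71 and 2.27 points after centring and 0.616 and 2.24 after scaling. Centring removes the same -4.89 points from every window, also from one with a low level such as that of Wnt10a. The other called ligands (Wnt1, Wnt3, Wnt3a, Wnt4, Wnt6, Wnt7b, Wnt8b, Wnt9a, Wnt9b and Wnt10b) differed by -5.41 to -9.69 points, near the median of all genes or beyond it. None of these calls held after centring, and after scaling only those of Wnt8b and Wnt10b did. With the gene span only, the calls of Wnt1 and Wnt3a were lost. The Wnt1 span was at 2.47% ± 0.846 in KO against 2.32% ± 0.757 in WT. The loss of its window thus lay in the flanks, in a window that shares tiles with that of Wnt10b. Wnt16 had -4.097 points and no call, and 0.795 and 1.21 after centring and scaling.

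Among the secreted modulators Sfrp1, a Wnt-binding antagonist, stood out with the largest window loss of all 40 genes. It (chromosome 8, 23411383 to 23449632) was at 48.2, 48.4 and 48.8% in KO against 67.1, 65.9 and 65.96% in WT, and it differed by -17.8 points, SE 0.765, adjusted p = 1.74e-07. A single region of 31 kb with 30 called tiles took up most of the gene (chromosome 8, 23413001 to 23444000), at 41.8% ± 1.54 in KO against 66.97% ± 0.564 in WT. It began close to the lower-coordinate end, which was unmethylated in both groups (1.85% ± 0.735 in KO against 2.48% ± 0.374 in WT). The other end was at 75.4% ± 3.02 in KO against 85.9% ± 4.06 in WT.

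Dkk3, a divergent member of the Dickkopf family (chromosome 7, 112116019 to 112159482), was at 63.1, 62.8 and 63.4% in KO against 74.7, 72.6 and 72.3% in WT, and it differed by -10.1 points, SE 0.755, adjusted p = 1.45e-06. Its longest region (11 kb, chromosome 7, 112150001 to 112161000) was at 50.5% ± 1.83 in KO against 68.4% ± 2.38 in WT and included the higher-coordinate end of the gene, which was at 22.7% ± 1.65 in KO against 35.5% ± 1.13 in WT. Dkk2, a co-receptor antagonist (chromosome 3, 132085266 to 132180304), was at 61.02, 61.02 and 60.5% in KO against 71.5, 68.2 and 69.3% in WT, and it differed by -8.81 points, SE 0.877, adjusted p = 8.42e-06, with a region of 7 kb inside the gene (chromosome 3, 132099001 to 132106000; 55.97% ± 1.66 in KO against 70.9% ± 2.24 in WT). In both genes every KO sample was below every WT sample.

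Wif1, another Wnt-binding inhibitor (chromosome 10, 121034004 to 121100642), was at 65.7, 64.9 and 66.3% in KO against 75.5, 73.4 and 73.98% in WT, a difference of -8.64 points, SE 0.725, adjusted p = 2.84e-06; its longest region, 7 kb, was at 64.1% ± 2.02 in KO against 78.9% ± 1.92 in WT (chromosome 10, 121069001 to 121076000). Sfrp2 (chromosome 3, 83765750 to 83774314) was at 52.1, 51.97 and 51.6% in KO against 61.1, 59.4 and 60.1% in WT, a difference of -8.32 points, SE 0.801, adjusted p = 6.73e-06, and its longest region was only 3 kb (chromosome 3, 83763001 to 83766000; 25.8% ± 3.38 in KO against 41.3% ± 0.989 in WT). These 2 and Dkk2 no longer reached 5 points after centring (-3.75, -3.43 and -3.92) or scaling (-2.99, -3.79 and -3.53), and Dkk3 did not after scaling (-4.57).

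Rspo2, an R-spondin (chromosome 15, 43020788 to 43171594), and Sfrp5 (chromosome 19, 42197971 to 42202252) had the smallest differences among the modulators and were not called. Rspo2 was at 61.8, 63.04 and 63.2% in KO against 67.8, 66.9 and 66.9% in WT (-4.53 points, SE 0.704, adjusted p = 0.000177), and Sfrp5 at 55.2, 58.1 and 58.7% in KO against 61.7, 61.6 and 62.4% in WT (-4.605 points, SE 0.995, adjusted p = 0.00156). Without KO sample 3 Sfrp5 passed, at -5.28 points; after centring the 2 genes were at 0.363 and 0.287 points and after scaling at 0.721 and 0.21. The remaining modulators, Dkk1, Rspo1 and Rspo3, were called at -6.05, -6.26 and -7.17 points, and none held after centring or scaling. Dkk1 missed the minimum without WT sample 1.

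Most first starts were low in both groups. A promoter table of RefSeq (GRCm38.p6, the assembly that mm10 names) gave strand and starts for 29 of the 40 genes; Wnt5a, Wnt7b, Wnt8a, Wnt10a, Lrp5, Lrp6, Dkk3, Sfrp1, Rspo2, Rspo3 and Apc were not matched. A first start is the 5′-most one listed there, and it can lie well inside the RefSeq gene span, as for Nkd1, Axin2, Wnt2, Wnt6 and Wnt9b. That of Nkd1 was at 88527633, where the span begins at 88521342, and that of Wnt6 at 74771892 (span from 74754342). On the minus strand, that of Wnt9b was at 103749821 (span to 103775272). Tiles within 1000 bp of the first start were under 10% in WT for 14 of the 29 genes, 48.3%, against 11.3% of all genes. Of the 29 first starts 6 were called lower (limma, adjusted p under 0.05 and at least 10 points) and 0 higher, where 16.5% of all first starts were lower and 0.0435% higher. The member count is near this share, but the comparison is not like for like. A start under 10% in WT cannot fall by 10 points, and such starts were 48.3% of the member starts against 11.3% of all. The median start difference was -3.17 points, against -4.43 over all genes, again with a larger share of member starts under 10% in WT. The first starts of Lef1 (0.892% ± 0.547 in KO against 1.55% ± 0.404 in WT) and Tcf7 (4.497% ± 4.81 in KO against 5.07% ± 0.998 in WT), whose windows lost over 10 points, were under 10% in both groups. They could therefore not be called lower. No member start was higher at an unadjusted p under 0.05.

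The 6 called starts were those of Nkd1, Tcf7l1, Wnt5b, Wnt2b, Tcf7l2 and Wnt8b. Nkd1 was the most methylated of these in WT, at a start that lies inside the gene span. It was at 54.1% ± 4.03 in KO against 71.8% ± 2.07 in WT (-17.7 points, SE 2.71, adjusted p = 0.000559 in limma). Tcf7l1 was at 10.9% ± 0.995 in KO against 24.2% ± 2.704 in WT (-13.3 points, SE 1.47, adjusted p = 7.64e-05) and Tcf7l2 at 4.62% ± 1.5996 in KO against 16.6% ± 1.29 in WT (-11.9 points, SE 1.09, adjusted p = 2.31e-05). Wnt2b was low in WT and near 0 in KO, with samples at 0.697, 1.01 and 0.817% in KO against 14.9, 12.9 and 11.8% in WT (-12.4 points, SE 0.902, adjusted p = 6.04e-06). Wnt5b was at 19.7% ± 3.54 in KO against 32.3% ± 2.03 in WT (-12.6 points, SE 2.0002, adjusted p = 0.000704), at a start it shares with an end of the protein-coding gene Gm52875, and Wnt8b at 49.7% ± 2.22 in KO against 61.6% ± 3.41 in WT (-11.8 points, SE 2.57, adjusted p = 0.00429). The groups did not overlap at any of the 6. Within 500 bp of the start only Nkd1 and Wnt8b kept the call; the other 4 were then at -1.35 (Tcf7l1), -0.794 (Tcf7l2), -2.13 (Wnt2b) and -3.55 points (Wnt5b). After centring only Nkd1 stayed called, and the Wnt8b call ended after scaling and without WT sample 2. Axin2 and Sfrp2 were not called: Axin2 was at 17.8, 14.1 and 16.6% in KO against 27.5, 27.2 and 14.7% in WT (-6.97 points, SE 2.96, adjusted p = 0.0797), with WT samples that differed among themselves, and Sfrp2 at 5.55% ± 2.39 in KO against 13.7% ± 0.362 in WT (-8.16 points, SE 1.17, adjusted p = 0.000372), short of 10 points.

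**Figure D3:**
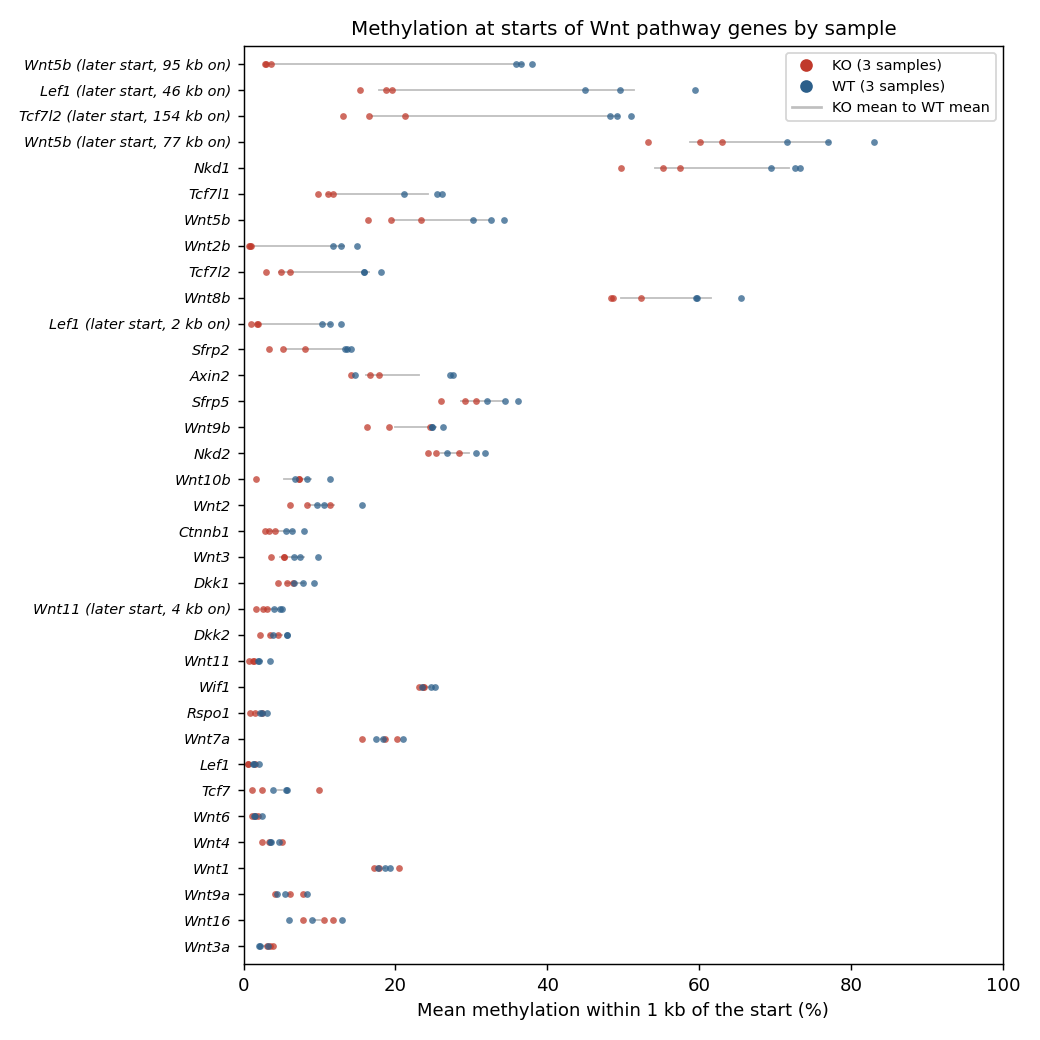
Mean methylation within 1 kb of a start (x axis, percent) for the first starts of 29 genes and for later starts at least 2 kb from the first, ordered by difference. Red dots are the 3 KO samples, blue dots the 3 WT samples and grey lines join the group means; later starts of Wnt5b, Lef1 and Tcf7l2 head the plot, and most first starts sit under 20% in both groups.

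Most of the later starts inside the genes fell. The table lists 6 member starts at least 2 kb from the first start of the same gene, and 4 of these were called lower in a fit over all starts of the table, where 18.2% of all starts and 36.7% of later starts at that distance were. This fit and these starts were chosen after the values were seen. The start of Wnt5b 94.96 kb after the first (119449386) was at 3.65, 2.84 and 2.94% in KO against 35.9, 37.9 and 36.5% in WT, a difference of -33.6 points, SE 1.19, adjusted p = 2.77e-07. The Lef1 start 45.997 kb after the first (131156294) was at 18.8, 19.6 and 15.3% in KO against 59.5, 44.99 and 49.6% in WT, a difference of -33.5 points, SE 3.28, adjusted p = 3.65e-05. At the Tcf7l2 start 154 kb on (55895321) the levels were 21.3, 13.04 and 16.5% in KO against 48.2, 49.1 and 50.97% in WT, a difference of -32.5 points, SE 2.25, adjusted p = 5.01e-06. These 3 were part methylated in WT and low in every KO sample. The fourth was a Wnt5b start at 119467211 (58.8% ± 4.999 in KO against 77.2% ± 5.73 in WT). The later Lef1 start at 131112791 missed the 10-point minimum (1.58% ± 0.5502 in KO against 11.6% ± 1.26 in WT), and the later Wnt11 start was unmethylated in both groups.

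The promoter sequences below run from 250 bases before to 50 after a start, 5′ to 3′ (RefSeq, GRCm38.p6), with each CpG, the site of this methylation, in capitals. They are shown to compare starts by CpG content: the first starts with the largest difference in each role (Nkd1, Wnt5b, Sfrp2), that of the target gene Axin2, and the 3 later starts with the largest losses.
Nkd1, first start (chr8:88527383-88527682, plus strand): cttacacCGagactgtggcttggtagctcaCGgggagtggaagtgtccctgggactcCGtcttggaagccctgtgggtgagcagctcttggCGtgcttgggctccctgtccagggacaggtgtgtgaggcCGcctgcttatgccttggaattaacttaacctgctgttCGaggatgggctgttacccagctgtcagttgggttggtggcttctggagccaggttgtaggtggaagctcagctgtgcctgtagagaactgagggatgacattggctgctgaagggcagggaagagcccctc
Wnt5b, first start (chr6:119544298-119544597, minus strand): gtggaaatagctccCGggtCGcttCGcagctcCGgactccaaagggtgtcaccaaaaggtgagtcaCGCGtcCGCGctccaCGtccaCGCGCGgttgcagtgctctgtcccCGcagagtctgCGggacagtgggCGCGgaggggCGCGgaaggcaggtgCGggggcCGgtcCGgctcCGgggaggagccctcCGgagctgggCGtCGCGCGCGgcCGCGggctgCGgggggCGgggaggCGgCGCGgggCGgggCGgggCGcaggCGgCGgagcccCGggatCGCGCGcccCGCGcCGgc
Sfrp2, first start (chr3:83766071-83766370, plus strand): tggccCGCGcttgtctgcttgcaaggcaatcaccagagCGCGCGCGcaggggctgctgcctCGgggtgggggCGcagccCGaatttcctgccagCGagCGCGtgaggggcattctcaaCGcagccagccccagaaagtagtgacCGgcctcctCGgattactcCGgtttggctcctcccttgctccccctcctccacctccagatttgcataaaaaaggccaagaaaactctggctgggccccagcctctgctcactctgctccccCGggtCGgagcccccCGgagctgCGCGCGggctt
Axin2, first start (chr11:108920099-108920398, plus strand): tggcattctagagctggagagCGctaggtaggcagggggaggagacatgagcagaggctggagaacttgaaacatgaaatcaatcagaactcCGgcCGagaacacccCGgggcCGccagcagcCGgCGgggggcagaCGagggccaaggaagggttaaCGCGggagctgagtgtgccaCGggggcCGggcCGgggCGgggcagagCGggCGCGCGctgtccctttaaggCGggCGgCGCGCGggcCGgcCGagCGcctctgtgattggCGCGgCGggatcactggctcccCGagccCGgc
Wnt5b, later start (chr6:119449337-119449636, minus strand): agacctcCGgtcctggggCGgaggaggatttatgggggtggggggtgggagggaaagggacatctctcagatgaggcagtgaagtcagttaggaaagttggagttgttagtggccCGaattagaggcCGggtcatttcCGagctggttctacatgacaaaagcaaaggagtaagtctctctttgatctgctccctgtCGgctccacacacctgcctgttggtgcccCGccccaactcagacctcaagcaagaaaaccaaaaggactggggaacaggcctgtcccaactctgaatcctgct
Lef1, later start (chr3:131156044-131156343, plus strand): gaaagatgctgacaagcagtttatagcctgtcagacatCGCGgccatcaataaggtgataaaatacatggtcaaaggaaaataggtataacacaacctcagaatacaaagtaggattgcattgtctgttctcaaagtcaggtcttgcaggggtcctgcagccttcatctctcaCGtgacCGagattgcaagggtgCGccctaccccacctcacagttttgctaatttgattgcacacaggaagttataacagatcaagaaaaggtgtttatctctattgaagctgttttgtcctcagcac
Tcf7l2, later start (chr19:55895071-55895370, plus strand): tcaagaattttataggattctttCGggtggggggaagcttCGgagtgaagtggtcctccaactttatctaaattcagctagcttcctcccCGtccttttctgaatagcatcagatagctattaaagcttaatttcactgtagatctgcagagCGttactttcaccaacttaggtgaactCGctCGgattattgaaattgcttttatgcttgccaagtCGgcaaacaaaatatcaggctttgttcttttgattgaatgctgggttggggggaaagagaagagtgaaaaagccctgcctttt
The first of these and the 3 later starts held few CpG: 6 for Nkd1, 7 for the later Wnt5b start, 5 for that of Lef1 and 7 for that of Tcf7l2. The first starts of Wnt5b, Axin2 and Sfrp2 held 47, 31 and 22. The median over the 29 member first starts was 29 CpG, against 14 over 16077 genes. The core letters of a TCF/LEF site, CTTTGAA or CTTTGAT on either strand, were in 2 of the 29 (Dkk1 and Wnt11), 6.897%, against 7.66% of all; of the 7 sequences shown, the later Wnt5b start holds CTTTGAT.

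Around the first starts the loss lay on both sides of a centre of low methylation. For the 8 effectors with a start, tiles 1 to 5 kb after it were at 35.3% ± 0.782 in KO against 52.3% ± 1.13 in WT (SD, n = 3 samples) and tiles 5 to 10 kb after it at 50.1% ± 0.909 in KO against 71.1% ± 0.835 in WT, differences of -17.01 and -20.98 points. Tiles 1 to 5 kb before it were at 43.2% ± 0.958 in KO against 61.3% ± 1.18 in WT (-18.1 points). Within 1 kb, 16 tiles were at 13.99% ± 1.49 in KO against 18.6% ± 1.496 in WT. For the 15 ligands the differences were -10.5 points 1 to 5 kb before, -1.71 within 1 kb, -11.02 at 1 to 5 kb and -5.84 at 10 to 20 kb after. The same bins over all genes had -7.75, -4.47, -7.73 and -6.404 points. The effectors were thus beyond all genes in each flanking bin, while the ligands were beyond them at 1 to 10 kb on either side, and not within 1 kb or at 10 to 20 kb. Within 1 kb the WT level was 8.5% for the ligands and 29.9% over all genes, which limits the points that the ligands can lose. These are descriptions over tiles that share genes, without a test.

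**Figure D4:**
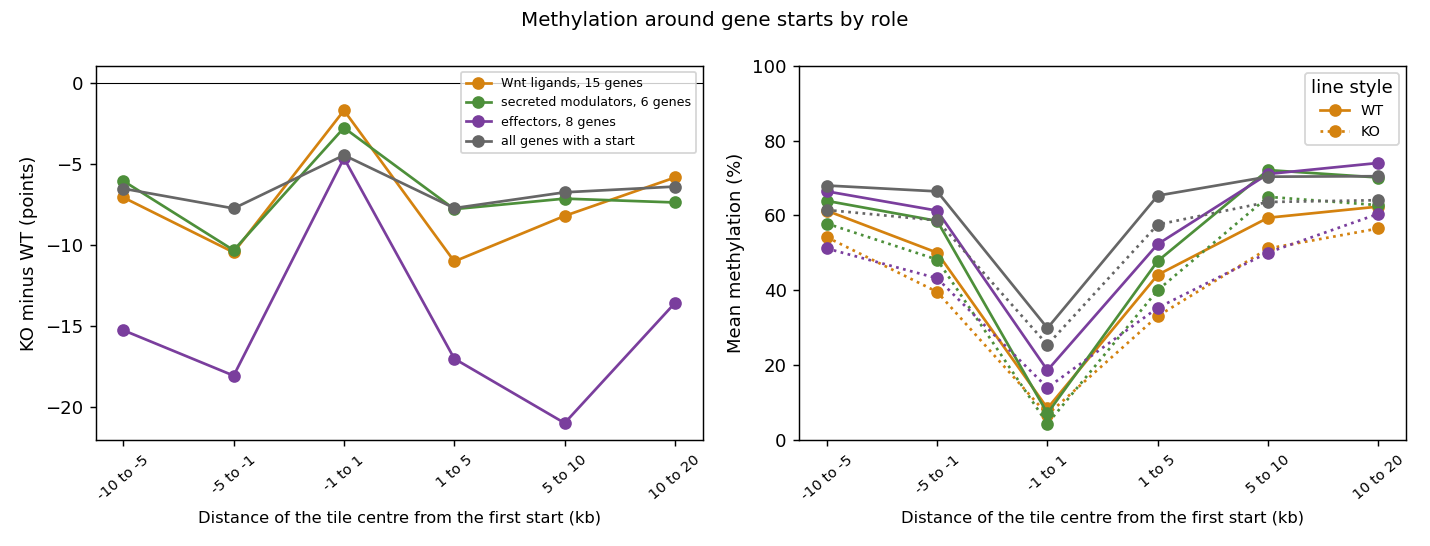
Left, KO minus WT in points, and right, mean methylation in percent (solid for WT, dotted for KO), by distance of the tile from the first start in 6 bins, for 15 ligands, 6 secreted modulators, 8 effectors and all genes with a start. Points are means over all tiles of a bin; all lines come closest to 0 difference within 1 kb of the start, and the effector line lies below the others in the flanking bins.

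Nearly unmethylated tiles were more numerous in KO. Tiles under 10% numbered 220, 235 and 236 in the KO samples and 151, 164 and 152 in the WT samples among the 2749 member tiles, with no overlap between the groups. Summed over samples this was a ratio of KO to WT of 1.48, near the 1.43 over the tiles of all genes, so this count is near the background. Tcf7l2 had 13, 13 and 12 such tiles in KO against 5, 5 and 4 in WT. In Tcf7l1 the numbers were 11, 12 and 13 against 4, 5 and 5, and in Wnt5b 14, 13 and 14 against 7, 7 and 5. Every KO sample had 8 in Axin2 and 6 in Wnt2b, where every WT sample had 4 and 2. Others did not differ in this count: Apc had 4 in every sample, Wnt16 2 and Nkd2 1. Member tiles with a WT mean of at least 50% and a KO mean below 10% numbered 16, 0.582% of member tiles, against 0.0916% of the tiles of all genes and 0.387% of those of the other pathway genes listed below. Of the 16, 12 belonged to the nuclear factors: 5 to Tcf7l2, 4 to Tcf7l1, 2 to Tcf7 and 1 to Lef1. The others were 2 in Axin2 and 1 each in Wnt5b and Lrp5.

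Gains were rare. Of the 2749 member tiles 933 were called lower, 33.9%, and 2 higher, where 16.2% of all tiles were lower and 0.0796% higher. In the windows of all genes 19.7% of tiles were lower. All KO samples were below all WT samples in 51.2% of member tiles, against 31.6% of all tiles and 36.8% of the tiles of all genes. By role, 43.3% of effector tiles, 28.3% of modulator tiles and 25.5% of ligand tiles fell. In the WT samples 3.5 to 3.83% of effector tiles, 3.74 to 4.21% of modulator tiles and 9.15 to 10.03% of ligand tiles were under 10%. The 154 member tiles with a WT level under 10% could not be called lower, because a fall of 10 points is not possible there. One of the 2 gains lay in Wnt10a (chromosome 1, 74796001 to 74797000), at 61.4, 55.97 and 46.6% in KO against 42.1, 39.8 and 39.6% in WT, a difference of 14.2 points, SE 4.29, adjusted p = 0.0246. The other lay in Lrp6 (chromosome 6, 134475001 to 134476000), at 72.02, 62.1 and 68.3% in KO against 60.4, 50.7 and 50.3% in WT, a difference of 13.7 points, SE 4.34, adjusted p = 0.0319. In both the KO samples were above the WT samples, but neither call held without WT sample 2 or without WT sample 3.

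Of 56 other genes of the pathway, frizzled receptors left out, 54 windows fell and 0 rose (limma; 56.6% of all windows fell), with a median difference of -9.34 points; 25 were lower after centring and 21 after scaling. No window of this list was higher at an unadjusted p under 0.05. The largest losses were in Cxxc5, which encodes a CXXC zinc finger protein that binds Dishevelled (32.2% ± 1.75 in KO against 64.3% ± 1.77 in WT), and Tle2, a Groucho-type co-repressor that binds TCF factors (30.02% ± 0.996 in KO against 55.8% ± 1.25 in WT). Next were Sost, which encodes the LRP5/6 antagonist sclerostin (40.7% ± 1.08 in KO against 61.6% ± 1.05 in WT), and Adgra2, the receptor that takes part in Wnt7 signalling in brain endothelium (35.4% ± 0.625 in KO against 55.01% ± 0.896 in WT). Each of these 4 had an adjusted p between 1.29e-07 and 1.88e-07. Rspo4 (59.4% ± 1.001 in KO against 62.2% ± 1.07 in WT) and Axin1 (73.9% ± 0.607 in KO against 77.4% ± 0.395 in WT), the paralog of Axin2, had the smallest differences and were the 2 not called; both turned positive after centring (2.06 and 1.397 points) and scaling (2.09 and 2.62). Axin1 differed by -3.49 points, and Axin2 by -17.5; the difference between these losses was not tested. First starts fell at 9 of 37 of these genes, where 16.5% of all first starts fell.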

How the data were processed

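DNA of sorted lung endothelial cells was sequenced after tagmentation and bisulfite conversion (T-WGBS in the protocols of the labels), from 30 ng and with 3 paired-end libraries of 100 bases per sample. BWA 0.7.8 and mm10 are named in the submitters' processing notes; the caller, the coverage filter and whether levels were smoothed were not stated there. The authors deposited the methylation level of each 1 kb tile as a fraction, here turned to percent; chromosomes 1 to 19 are covered.

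limma 3.58.1 (R 4.3.3), with a variance trend, was fitted to all tiles, all gene windows (at least 3 tiles) and all gene starts, 3 KO against 3 WT samples, with Benjamini-Hochberg adjustment over each kind. SE is limma's moderated standard error. Alternatives were centring, scaling to one mean, logit values, no trend, a replicate block, other flanks and minima, and leaving out each sample. Tables and figures were made in Python 3.11.15 (matplotlib 3.10.9, pandas 2.3.3, numpy 2.4.6), and the fits were tested on simulated data.

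The members and lists were chosen with earlier results of these data known. Named with all samples were, per role, the up to 5 called members with the largest and the 2 with the smallest difference, with the longest region of the former, every called start and every tile called higher; Wnt2, later starts and some regions and tiles were added after their values were seen.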

Additional observations from a re-analysis of the deposited data

How the results depend on the processing

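The main limit is the general loss in KO. After centring, 12 member windows (4 ligands, 2 of the modulators, 6 effectors), 25 windows of other pathway genes and 3471 of all genes were lower, with 465 member tiles lower and 13 higher, 129769 tiles lower in all, and 1 start lower. After scaling, 14 member windows (7 ligands, 1 of the modulators, 6 effectors), 21 windows of other pathway genes and 3457 of all genes were lower, with 463 member tiles lower and 20 higher and 128517 tiles lower in all. Window differences that changed sign were those of Wnt10a (3.71 centred, 0.616 scaled, 0.999 in the gene span alone, 0.297 with 5 kb flanks), Wnt7a (2.27, 2.24), Rspo2 (0.363, 0.721), Sfrp5 (0.287, 0.21), Wnt2 (0.3105, 0.912), Wnt16 (0.795, 1.21) and Apc (0.755 scaled) and, among the other pathway genes named, Axin1 (1.397, 2.62) and Rspo4 (2.06, 2.09). With a minimum of 10 points for windows, 12 member windows (4 ligands, 2 of the modulators, 6 effectors), 22 windows of other pathway genes and 3345 of all genes were lower. A minimum of 20 points for tiles and starts left 330 member tiles lower and 0 higher, 87938 tiles in all and 0 member starts, and 500 bp around starts left 2 starts; these 3 settings ask for more or use fewer tiles by construction. Without the variance trend 4 member tiles were higher; the cause was not tested. With every start of the promoter table, a setting added after seeing the data, 10 member starts were lower. Leaving out each sample in turn gave 33 to 35 member windows lower, 748 to 853 member tiles lower, 0 to 2 higher and 5 to 7 starts lower. Samples with the same number did not deviate together (correlation over tiles -0.00321 to 0.01098). Deviations of single tiles cannot exclude a pairing, and the labels do not say whether the numbers pair samples. With a replicate block 34 member windows, 935 tiles and 6 starts were lower. Logit values changed no window or start call. Depth is unknown, so shallow samples cannot be told from deep ones.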

Other observations

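Several Wnt genes lie in pairs. Wnt6 and Wnt10a lie side by side on chromosome 1 and were, with Wnt1, the least methylated ligands in WT: Wnt6 was at 34.4% ± 1.42 in KO against 40.2% ± 1.61 in WT and Wnt1 at 24.4% ± 1.24 in KO against 30.6% ± 0.844 in WT. Wnt10a had 14, 17 and 17 tiles under 10% in KO and 13, 17 and 13 in WT among 32. Wnt3 (51.9% ± 0.705 in KO against 58.3% ± 0.456 in WT) and Wnt9b (49.4% ± 0.261 in KO against 56.6% ± 0.433 in WT), neighbours on chromosome 11, and Wnt3a (47.1% ± 0.731 in KO against 52.5% ± 0.236 in WT) and Wnt9a (46.3% ± 0.176 in KO against 53.3% ± 0.952 in WT), also on chromosome 11, had losses within 2 points of each other, in windows that share tiles. Wnt10b, beside Wnt1 on chromosome 15, was at 34.1% ± 1.67 in KO against 43.4% ± 0.604 in WT.

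Across the 40 members the window difference correlated with the WT level at r = -0.4095 (rho = -0.358), more methylated windows tending to lose more; the difference contains the WT level, and some windows share tiles. Across all 20341 windows r was 0.04202. With gene length r was -0.184 over the members. In the 29 members with a strand, the 10 kb before the gene lost more than the 10 kb after it in 22, and more than the gene span in 12. Median differences were -8.54 points before the gene, -8.82 in the span and -5.99 after it. These counts were not made over all genes, so they do not set the members apart.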
